A study of Rubus occidentalis with 14 samples.

Results

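A set of 150 black raspberry (Rubus occidentalis) genes held a steady level in fruit of stages 1 and 2 and stood at least 4-fold lower in stage 3. They were picked from the 33253 gene identifiers of the table by the means of the stages. A gene had to average at least 100 normalised counts (reads divided by a library size factor) in both stage 1 and stage 2. The logarithms of those means, log2(mean + 10), had to differ by at most 0.5. These conditions left a pool of 7078 genes. Each was scored by the lower of its logarithms in stages 1 and 2 minus the highest of those in stages 3, 4 and 5, and the 150 highest scores, 2.12% of the pool, were taken. Because the choice used the means of all 5 stages, the steadiness between stages 1 and 2 and the drop after stage 2 are given as descriptions, without a test. The order of stages 3, 4 and 5 and the differences between libraries of a stage were not set by it.

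The samples were poly(A) RNA-seq libraries of whole fruit from the advanced selection NC 349, grown at a single research station, with 3 libraries each in stages 1, 2, 3 and 5 and 2 in stage 4. All groups share genotype, tissue and site. The labels number the stages, and the library names add the abbreviations Gr, Re, So, Tu and Bl for stages 1 to 5, which the labels do not spell out. The titles also carry codes that vary with stage: those of 3 libraries, stage 3 replicates 2 and 3 and stage 4 replicate 2, open with TH and the other 11 with YH. In stages 1, 2, 3 and 5 replicates 2 and 3 bear the same code and replicate 1 another, so that each stage has 2 codes. What a code stands for and how plants or fruits were divided among libraries is not stated; the separate samples may be 2 per stage, and p-values reflect how far these libraries vary, which may in part be technical. Libraries held 7576338 to 39938265 reads, and 1 read was worth 0.319 to 2.76 normalised counts.

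Raspberry fruit are aggregates of fleshy drupelets, each around a seed. Growth comes first, with green, firm tissue and developing seeds, and ripening then brings loss of chlorophyll, anthocyanin pigment, softening and sugar. Genes that serve growth, photosynthesis and seed formation are commonly switched down as such fruit ripen. The identifiers come without names, so none of the 150 genes is given a function here, and few are named. In whole fruit, fewer cells of a type and less RNA per cell cannot be told apart.

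Together the 150 genes took up a shrinking part of the reads. In stage 1 they took 0.704% ± 0.055 of the reads (SD, n = 3) and in stage 2 they took 0.555% ± 0.079 (n = 3). Stage 3 had 0.060% ± 0.015 (n = 3), stage 4 0.0301% ± 0.00080 (n = 2) and stage 5 0.0215% ± 0.0031 (n = 3). No library of stages 3 to 5 came near a library of stage 1 or 2, the highest of the first being 0.0740% and the lowest of the second 0.467%. On the deposited scale the sum over the genes was 12309 ± 2561 normalised counts in stage 3, against 74747 ± 7258 in stage 2 (SD, n = 3 each), a 6.07-fold difference. As a share of reads the same difference was 9.24-fold.

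**Figure D1:**
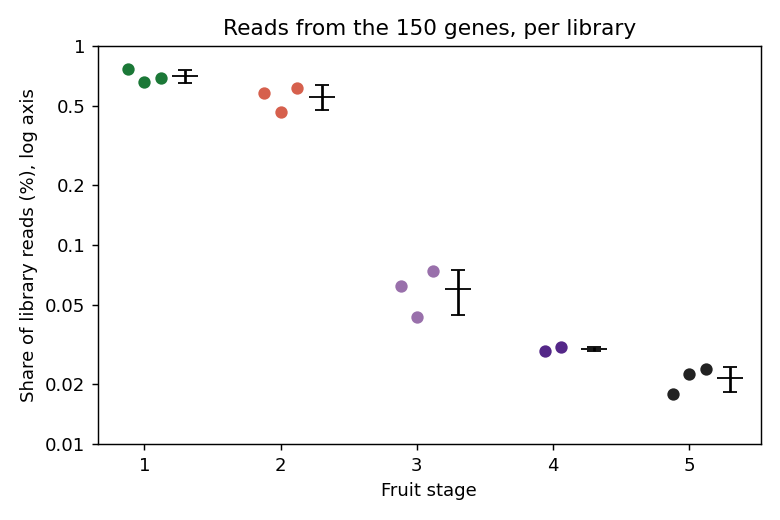
Percentage of the reads of each library (log axis) that came from the 150 genes, by fruit stage. Points are libraries and the bars to the right of them are the mean ± SD. Stages 1 and 2 lie at 0.467% and above, and stages 3 to 5 at 0.0740% and below.

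The drop was large but seldom complete at stage 3. The median gene kept 16.9% of its stage 2 mean in stage 3, and the range ran from 2.66% to 24.3%. The fold of stage 2 over stage 3 had a median of 5.91, and 25 of the 150 genes reached 8-fold and 6 reached 16-fold. In stage 3, 129 genes still had at least 10 normalised counts in every library, and none of the 150 was down to 3 reads or fewer in all of them. The word "lost" thus describes few of these genes at stage 3, and they are called falling genes here. By stage 5 the median gene kept 8.89% of its stage 2 mean, 101 genes had at least 10 normalised counts in every library, 8 had at most 3 reads in each and 1 had no reads at all.

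The genes were of moderate abundance before the drop. Their median stage mean was 308 in stage 1 and 284 in stage 2. Over stages 3, 4 and 5 it was 46.8, 26.7 and 23.4. In the pool the medians were 457 in stage 1 and 466 in stage 2, above those of the falling genes. A few dominated the sum: the 10 most abundant genes made up 38.2% of it in stage 1 and Ro07_G04317 alone 11.99%. Ro07_G04317, named for its level after its values were seen, had 9658, 7786 and 11320.3 normalised counts in stage 1 and 9193, 7449 and 7831 in stage 2. The stage 3 libraries held 1053, 371 and 709.8, those of stage 4 held 261 and 221, and those of stage 5 held 180.2, 127 and 273. Each of its libraries in stages 3 to 5 lay below all of those of stages 1 and 2.

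**Figure D2:**
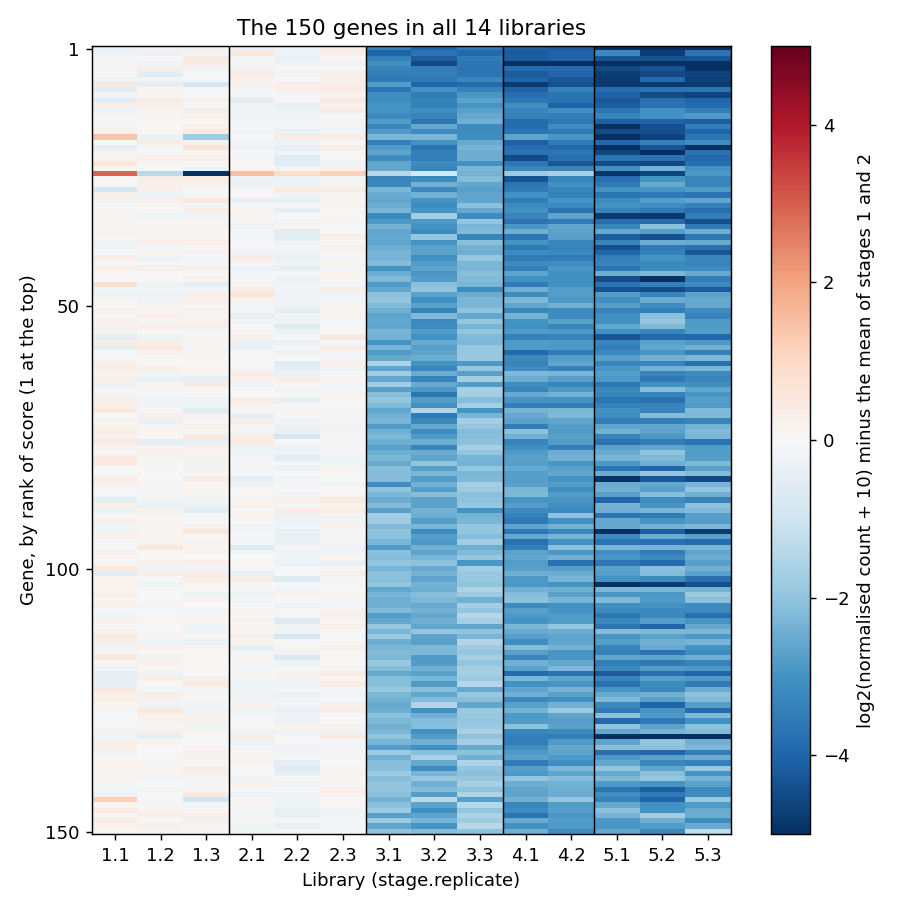
Each row is 1 of the 150 genes, ordered by score, and each column 1 of the 14 libraries. Colour gives log2(normalised count + 10) minus the gene's mean over stages 1 and 2. The rows turn from pale to blue between stages 2 and 3, and most darken further in stages 4 and 5; the row that is red, pale and dark blue in stage 1 is Ro04_G08557.

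The highest score, 3.56, belonged to Ro05_G30569. It had 500.3, 727 and 775 normalised counts in stage 1 and 505, 516 and 822 in stage 2. The stage 3 libraries held 50.8, 30.7 and 46.9, those of stage 4 held 29.0 and 24.4, and those of stage 5 held 7.83, 5.53 and 5.91. Its libraries of stages 3, 4 and 5 formed separate steps downwards, and stage 5 held 1.05% of the stage 2 mean. Ro05_G11805, next in score at 3.54, had the largest drop of all. It stood at 223, 200.4 and 231 in stage 1 and at 363, 222 and 325 in stage 2. The later libraries had 6.42, 10.2 and 7.51 (stage 3), 4.84 and 5.90 (stage 4), and 18.6, 0 and 10.3 (stage 5). The stage 2 mean was 37.6-fold the stage 3 mean, and no further step followed, since the stage 5 libraries lay on both sides of those of stage 3. In stage 3 replicates 2 and 3, 3 reads were worth 7.69 and 5.63 normalised counts. The stage 3 values thus rest on few reads there, and the size of this fold is uncertain. At the other end, the last gene taken, Ro01_G05023, had a score of 1.946 and means of 227, 190.3, 42.0, 23.3 and 40.5 in stages 1 to 5. The first gene left out, Ro05_G30925, scored 1.943 with means of 1210, 1353, 307, 159 and 69.3, so the boundary cuts through a continuous range.

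The contrast of stage 3 with stage 2 was part of how the genes were found, and its counts carry no weight of their own. limma called 149 of the 150 genes lower in stage 3, where 28.9% of the 19234 genes tested were called lower. All 150 passed the filter on low values, which their stage 1 and 2 levels made certain. The median log2 change of the 150 was -2.62 and that of all tested genes -0.12; with equal total reads these were -3.23 and -0.70. In all 150 genes the lowest stage 2 library exceeded the highest stage 3 library, as it did in 34.4% of tested genes. With every stage 1 and 2 library above every library of stages 3 to 5 the counts were 149 genes and 23.0% of tested genes. Among libraries whose title codes open with the same letters (stage 3 replicate 1 against the 3 of stage 2) the median change was -2.63, with all 150 lower.

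The exception in these counts was Ro04_G08557. It had 10181 normalised counts in stage 1 replicate 1, 520 in replicate 2 and 27.2 in replicate 3, while stage 2 held 3745, 2535 and 3032 in its libraries. It then had 486, 733 and 249.7 in the stage 3 libraries, 368 and 432 in those of stage 4, and 36.2, 44.2 and 171 in those of stage 5. Its stage 1 mean of 3576 thus rests on a single library, and a steady level between stages 1 and 2 is not what its libraries show. Ro03_G31770 and Ro02_G06605, also named after their values were seen, likewise spanned over 4-fold in stage 1, at 1366, 402 and 139 for the first and 669, 269 and 144 for the second. All 3 genes were highest in stage 1 replicate 1. Spans of this size occurred in 0.226% of the pool.

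**Figure D3:**
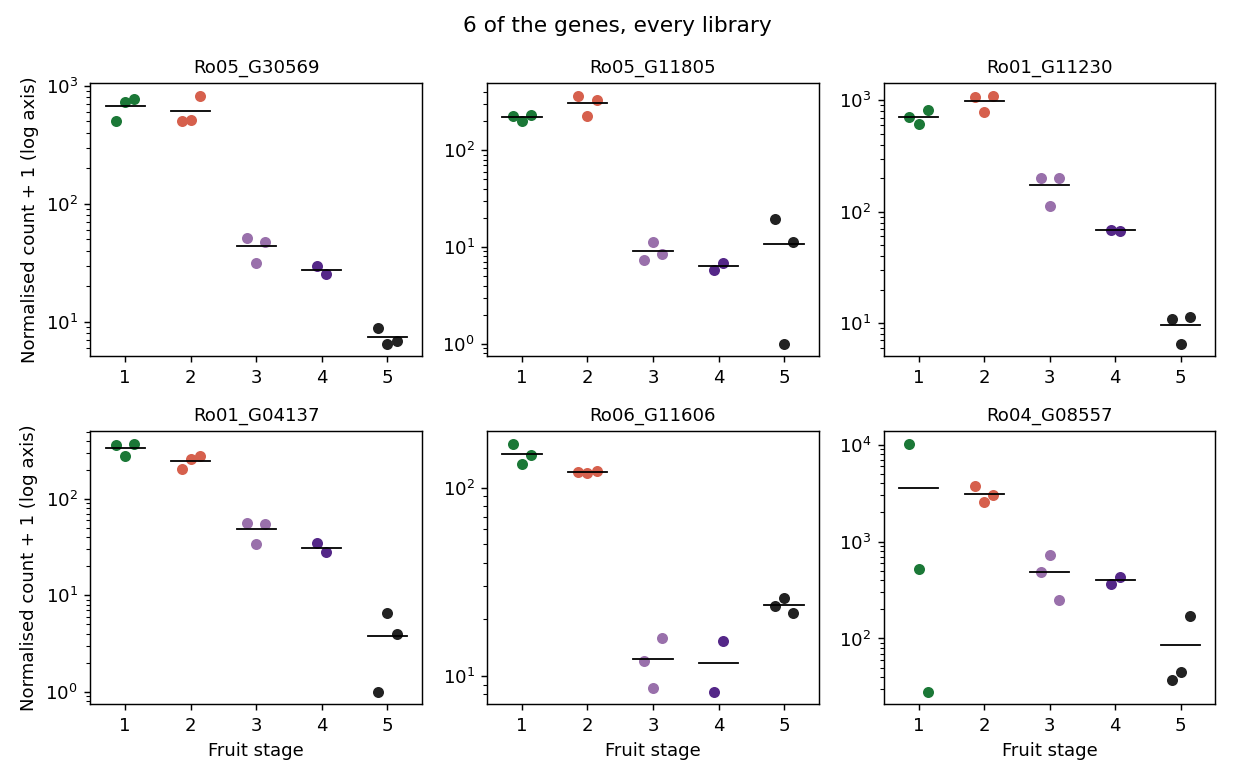
Normalised count + 1 (log axis) of 6 of the genes in every library, by stage. Points are libraries and lines are stage means. Ro01_G11230 and Ro01_G04137 fall again after stage 3, Ro06_G11606 turns up in stage 5, and the stage 1 libraries of Ro04_G08557 lie between 27.2 and 10181.

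Between stages 1 and 2 the choice limited the size of a change but not its direction. The mean was lower in stage 2 than in stage 1 in 109 of the 150 genes, against 44.0% of the pool. The median log2 change was -0.13 for the 150 genes, 0.05 for the pool and -0.058 for all tested genes, so the tilt was small. With equal total reads the 150 had -0.38 and all tested genes -0.31. After quantile normalization the 150 had -0.0081 and all tested genes 0.17. limma called 0 of the 150 in either direction, where 24.3% of tested genes were called lower and 18.6% higher. In the pool, also chosen as steady, 3.87% were called lower and 8.34% higher. At an unadjusted limma p below 0.05 there were 3 of the 150, against 49.8% of tested genes and 21.0% of the pool. edgeR called 3 and DESeq2 5, against 46.6% and 47.4% of tested genes. Since steady genes were chosen, nothing is read from these counts. The most negative changes were in Ro03_G15328, with 207, 211 and 251 in stage 2 against 345, 333 and 277 in stage 1 (log2 change -0.51), and Ro06_G23164, with 249, 226 and 295 in stage 2 against 366, 358 and 367 in stage 1 (log2 change -0.51). Their libraries did not overlap. After Ro04_G08557, whose change of 2.53 was negative by edgeR and DESeq2 (-0.17 and -0.20), the largest increase was 0.60 in Ro01_G11638, with 306, 339 and 345 in stage 2 against 368, 194 and 144 in stage 1, and its libraries overlapped. With same-numbered libraries of all stages treated as blocks, which the labels do not state, a replicate block called 1 gene. Leaving out stage 1 replicate 1 gave 2 calls, and leaving out stage 5 replicate 1 or stage 5 replicate 3 gave 1 each.

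Most of the genes had still lower means after stage 3, and 77 of them passed the test. The mean was lower in stage 5 than in stage 3 in 136 of the 150 genes, against 45.4% of the pool, and it was lower at each step, 3 to 4 and 4 to 5, in 86 genes, against 23.1% of the pool. limma called 77 of the 150 genes lower in stage 5 than in stage 3, where 18.5% of tested genes were called lower. It called 1 higher, where 15.5% of tested genes were. The choice put an upper limit on the stage 5 level of the 150 genes but not on that of all tested genes. The median log2 change from stage 3 to stage 5 was -0.95 for the 150 genes and -0.03 for all tested genes. Every stage 5 library lay below every stage 3 library in 70 genes and above in 2, where 21.8% and 20.8% of tested genes did so. The 77 genes had a median stage mean of 22.1 in stage 5 and 57.4 in stage 3, and the other 73 had 26.6 in stage 5 and 35.7 in stage 3. With quantile normalization 46 were called lower, against 13.5% of all genes in that fit, and with a term for the letters that open the title codes 56 were, against 12.9%. With the libraries of one title code averaged, which left 2 samples per stage, 71 were called lower, against 16.3%, and 0 higher, against 11.7%. In stage 3 the averaged libraries, replicates 2 and 3, lay furthest apart in these genes. Their median log2 differences from the other stage 3 libraries were -0.44 and 0.36, and averaging took that spread out of the test. Among libraries with the same title letters (3 of stage 5 against stage 3 replicate 1) the median change was -1.04, with 130 of the 150 lower. That count rests on a single stage 3 library and was not taken over other genes.

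**Figure D4:**
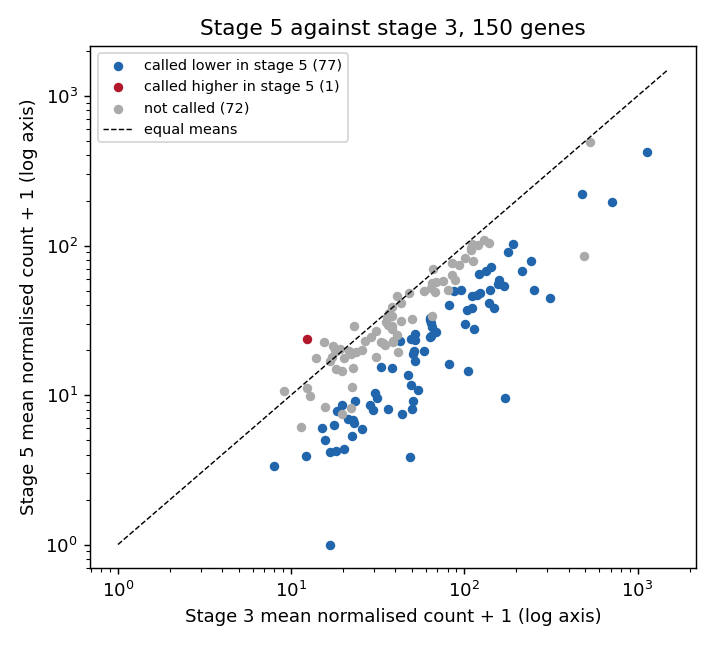
Stage 5 mean against stage 3 mean (normalised count + 1, log axes) for the 150 genes, coloured by the limma call, with the line of equal means. The 77 genes called lower lie below the line and 1 called gene lies above it. The other 72 genes were not called, and the spread between libraries is not drawn.

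The largest of these later falls was in Ro01_G11230. This gene had 714, 612 and 815 normalised counts in stage 1 and 1068, 784 and 1096 in stage 2. The stage 3 libraries held 200.2, 113 and 200.9, those of stage 4 held 67.7 and 66.5, and those of stage 5 held 9.79, 5.53 and 10.3. Its stage 3 mean was 20.0-fold its stage 5 mean, a larger step than the 5.74-fold of stage 2 over stage 3. The log2 change was -4.17 ± 0.27 (SE) in stage 5 against stage 3, with a limma adjusted p of 2.44e-07, and -2.88 ± 0.30 in stage 5 against stage 4 (limma adjusted p 3.85e-05). Ro01_G04137 was next. It had 0, 5.53 and 2.96 in stage 5, against 55.5, 33.3 and 54.5 in stage 3 and 33.9 and 26.9 in stage 4. The stage 5 values rest on 4 reads over the 3 libraries. Its log2 change was -4.01 ± 0.52 against stage 3 (limma adjusted p 8.24e-05) and -3.40 ± 0.58 against stage 4 (limma adjusted p 0.00149). Without stage 5 replicate 1, the library with no reads of it, these changes were -3.23 and -2.62, and it was still called.

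Ro01_G11638 was the gene without reads in stage 5. It had 0 reads in each stage 5 library and 30.4, 7.69 and 9.39 normalised counts in stage 3. With 3 reads per library set as its floor, a mean of 5.22, stage 5 was at least 3.03-fold below the stage 3 mean of 15.8. That mean leaned on replicate 1, and the 7.69 of replicate 2 stands for 3 reads, so the bound holds for the mean only. By the same floor, which covers counting error only, stage 5 was at least 63.2-fold lower than the stage 2 mean of 330.2.

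A rise after stage 3 was rare among the 150 genes. Ro06_G11606 was the only gene limma called higher in stage 5 than in stage 3, with 22.5, 24.9 and 20.7 in stage 5 against 11.1, 7.69 and 15.0 in stage 3. Its 7.69 in stage 3 replicate 2 stands for 3 reads. The log2 change was 0.99 ± 0.30 (limma adjusted p 0.0208), and stage 5 still held only 18.9% of the stage 2 mean. It was no longer called with equal total reads (0.60, limma adjusted p 0.154), when libraries of one title code were averaged (0.98, 0.0633), or when stage 3 replicate 2 (0.76, 0.0678) or stage 5 replicate 2 (0.93, 0.053) was left out, and its adjusted p ranged from 0.00612 to 0.154 over the alternatives. Ro02_G16195 had 18.6, 22.1 and 23.6 in stage 5 against 13.4, 20.5 and 9.39 in stage 3, a log2 change of 0.60 that limma did not call (adjusted p 0.167).

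The step from stage 3 to stage 4 pointed down without passing the test. The median log2 change was -0.73 for the 150 genes, 0.025 for the pool and 0 for all tested genes. The mean was lower in stage 4 than in stage 3 in 144 of the 150 genes, a count not taken over other genes. limma called 0 of the 150, where 0.0156% of tested genes were called, and edgeR also called 0, where it called 0.0104% of tested genes. DESeq2 called 20, all lower, where it called 1.64% of tested genes. At an unadjusted p below 0.05 limma had 64 of the 150, all lower, against 13.7% of tested genes. Leaving out stage 3 replicate 2, in which these genes were lowest, gave 20 calls, all lower, against 1.92% of all genes in that fit. Leaving out stage 5 replicate 2 gave 1, against 0.0573%, and leaving out any of the other 12 libraries gave 0. Among libraries with the same title letters, stage 4 replicate 2 against stage 3 replicates 2 and 3 had a median change of -0.64 (131 genes lower). Stage 4 replicate 1 against stage 3 replicate 1 had -0.71 (134 lower). These counts rest on few libraries and were not taken over other genes. The most negative change was in Ro01_G11638, with 0 and 3.37 in stage 4 against 30.4, 7.69 and 9.39 in stage 3 (log2 change -2.76, limma adjusted p 0.119, or 0.0431 without stage 3 replicate 2, with a range of 0.0431 to 0.556 over the alternatives). Ro07_G20648 had 9.68 and 11.8 in stage 4 against 37.4, 33.3 and 78.9 in stage 3, with no overlap (log2 change -2.01, limma adjusted p 0.0623; 0.00299 by DESeq2 and 0.0177 without stage 3 replicate 2, with a range of 0.00299 to 0.289). The largest increases were 0.76 in Ro01_G02898 and 0.51 in Ro05_G30585 on the log2 scale, with limma adjusted p of 0.652 and 0.765; that of Ro01_G02898 was -0.049 without stage 3 replicate 2.

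From stage 4 to stage 5 the genes were called about as often as genes at large when both directions were counted. In the main fit their calls leaned more to lower values, a lean that was not tested. limma called 22 of the 150 lower, which is 14.7%, where 10.8% of tested genes were called lower, and 5 higher, which is 3.33%, where 7.66% were. The mean was lower in stage 5 in 92 genes, a count not taken over other genes. The median log2 change was -0.25, against 0.046 for the pool and -0.0043 for all tested genes. It was also -0.25 among libraries with the same title letters (3 of stage 5 against stage 4 replicate 1). Ro02_G16195 rose most, with 18.6, 22.1 and 23.6 in stage 5 against 7.26 and 6.74 in stage 4 (log2 change 1.48 ± 0.35, limma adjusted p 0.0114). Its 7.26 in stage 4 replicate 1 stands for 3 reads. Ro06_G22440 had 58.8, 94.0 and 53.2 in stage 5 against 16.9 and 36.2 in stage 4 (log2 change 1.39 ± 0.39, limma adjusted p 0.0257). The counts leaned on stage 4, which had 2 libraries: without its replicate 1 there were 9 calls, all lower, against 9.28% of all genes called in that fit, and without its replicate 2 there were 14, of which 8 lower, against 8.94%. Ro02_G16195 was not called without either stage 4 library (limma adjusted p 0.0586 and 0.0751, with a range from 0.00662 over the alternatives). Ro06_G22440 was not called without stage 4 replicate 1 (0.266), without stage 5 replicate 2 (0.0726), with equal total reads (0.0531) or by edgeR (0.0605), with a range of 0.00822 to 0.266 over the alternatives. Quantile normalization called 9 lower and 6 higher, against 6.84% and 4.76% of all genes in that fit. Equal total reads gave 27 lower and 2 higher, against 14.6% and 3.82%.

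In stages 2, 3 and 5 the libraries of a stage differed in these genes in a common direction. In stage 2, replicate 2 was the lowest library in 97 of the 150 genes, where it was lowest in 36.7% of tested genes. Replicate 3 was lowest in 7, where it was lowest in 22.3% of tested genes. The median difference of replicate 2 from the other stage 2 libraries, on the scale of log2(normalised count + 10), was -0.19 over the 150 genes, against -0.02 over the pool. That is 7.58% of the way from the other stage 2 libraries to stage 3. In stage 3, replicate 3 was the highest library in 89 of the 150 genes, where it was highest in 29.4% of tested genes. There the median difference from the other libraries was 0.36 in replicate 3 and -0.44 in replicate 2, against 0.0050 and -0.02 over the pool. These 2 libraries bear the same title code. Replicates 2 and 3 of stage 2 also share a code, and replicate 3 there differed by 0.17. The SD between stage 3 libraries had a median of 0.40 over the 150 genes and 0.18 over the pool, whose genes were more abundant. Summed, the 150 genes had 12537, 9642 and 14749 normalised counts in stage 3 replicates 1, 2 and 3. Stage 2 replicate 2 and stage 3 replicate 2 were shallow, at 8601064 and 8597118 reads, but stage 3 replicate 3 was shallow too, at 10610577 reads; the part of depth in these differences was not tested. In stage 5 the median difference was -0.17 in replicate 1 and 0.17 in replicate 3, against -0.03 and -0.0021 over the pool, and replicate 1 was the highest library in 23 of the 150 genes, where it was highest in 32.8% of tested genes. The SD between stage 5 libraries had a median of 0.31 over the 150 genes and 0.19 over the pool. In stage 1 the libraries differed by at most 0.03 in median, with no library standing apart in the 150 genes.

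**Figure D5:**
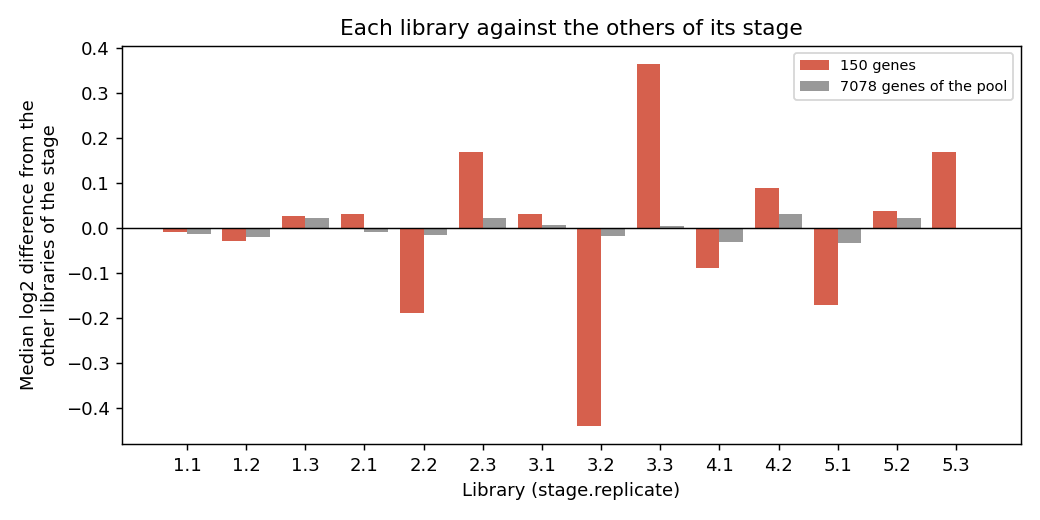
Median log2 difference of each library from the other libraries of its stage, for the 150 genes (left bar) and the 7078 genes of the pool (right bar). The 150 genes stand apart most in stage 3, at -0.44 in replicate 2 and 0.36 in replicate 3, while the pool stays close to 0.

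The choice was repeated without each library in turn. When the 150 genes were picked again without 1 library, 130 to 149 of them were the same genes. A library of stage 1 or 2 that was left out was then set against the highest of the later stage means, and a library of stages 3 to 5 against the lower of the stage 1 and 2 means. It lay on the side of its stage in all 150 re-picked genes for 13 of the 14 libraries and in 149 for stage 1 replicate 3. The median gap in the library left out, on the scale of log2(value + 10), was 2.11 to 2.46 for the libraries of stages 1 and 2 and 1.92 to 3.16 for those of stages 3 to 5. The means on the other side of each gap were chosen to be far away, and for 8 of the 14 libraries another of the same title code stayed in the choice, so the gaps are descriptions and not a test of the drop. Over the whole re-picked pool, 34.2% to 43.7% of genes lay on that side. The smallest gaps of their groups belonged to stage 2 replicate 2 and stage 3 replicate 3, the libraries in which the genes stood closest to the neighbouring stage.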

How the data were processed

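Per the submitters' processing notes, Trimmomatic, HISAT2 and DESeq2 were used; for versions, read counter, genome build and annotation, the sources used here give nothing. The deposited signal values are read counts that the authors divided by 1 size factor per library. Divided by the value of 1 read, 100% of them came out whole (tolerance 0.01 read), which gave back the reads. Columns were matched to samples by library name.

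Genes with at least 10 normalised counts in at least 2 libraries (19234) entered limma 3.58.1 (R 4.3.3) on the scale log2(normalised count + 1), with all 14 libraries in one model and a prior variance that follows the mean. Two-sided p-values were adjusted over all genes tested (Benjamini-Hochberg), with calls below 0.05. Fold changes on this scale understate changes of low genes. The recovered reads were also tested by DESeq2 1.42.0 and by the quasi-likelihood test of edgeR 4.0.16.

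The 150 genes and the comparisons were chosen with earlier results of these data known. For each difference between stages, the 2 largest rises and falls are named, called genes first; for stage 3 against stage 2 the 2 highest scores are named, and at the threshold of the choice the last gene taken and the first left out. Other named genes are said to be so. Gene lists set as patterns on names could not be matched to identifiers and were not tested. Deviations of same-numbered libraries from their stage means correlated across genes at 0.41, 0.29 and 0.30 between stages 1 and 2. Between stages 2 and 3 the correlations were 0.19, 0.10 and 0.16. Between stages 3 and 5 they were 0.28, -0.083 and -0.099. They were -0.087 and -0.15 between stages 3 and 4, and 0.064 and 0.082 between stages 4 and 5. The labels do not state pairs, and the replicate block used the numbers as blocks in all stages at once. Such correlations do not show that the libraries were true pairs. Floors of 3 reads cover counting error only.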

Additional observations from a re-analysis of the deposited data

How the results depend on the processing

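Of the 150 genes, 88 were picked again after quantile normalization, 103 with equal total reads, 119 with stage medians, 126 with a minimum mean of 50, 137 with an offset of 1, and 130 to 149 without single libraries. Shares in parentheses are of all genes called in the same fit. Stage 3 against stage 2, a contrast that the choice had used, had 148 to 150 calls in the settings run (38.2% to 63.7%). For stage 2 against stage 1 the 0 calls became 5 with DESeq2 (47.4%), 3 with edgeR (46.6%), 5 with equal total reads (45.8%), 1 with a pseudocount of 10 (46.1%), 6 with quantile normalization (48.4%), and 0 to 2 without single libraries (36.5% to 44.1%). With a replicate block they became 1 (44.9%), also when the block used the number in the library name, an alternative added after seeing the data. For stage 4 against stage 3 the 0 calls became 20 with DESeq2 (1.64%), 1 with equal total reads (0.0749%), and 0 to 20 without single libraries (0 to 1.92%). For stage 5 against stage 4 the 27 calls (18.4%) became 15 with quantile normalization (11.6%) and 9 to 33 without single libraries (8.94% to 19.5%), counts near these shares of 150. For stage 5 against stage 3 the 78 calls (33.98%) became 47 with quantile normalization (25.1%), 57 with a term for title-code letters (23.1%) and 62 to 81 without single libraries (25.9% to 34.9%). With libraries of one title code averaged, which like the term for letters was added after seeing the data, the 5 comparisons in the order given had 149 (45.8%), 0 (37.0%), 0 (0.182%), 34 (18.5%) and 71 calls (28.0%). With the replicate block the last 2 had 33 (20.7%) and 80 (36.7%), and stage 3 against stage 2 had 149 (54.4%); between stages 3, 4 and 5 the libraries share only a number. Stage 2 replicate 1 was lowest in 46 genes as deposited and in 24 with equal total reads, against 41.1% and 32.1% of tested genes. Stage 2 replicate 3 was lowest in 7 and in 2, against 22.3% and 16.2% of tested genes. The change of Ro04_G08557 in stage 2 against stage 1, 2.53 by limma, was -0.20 by DESeq2 and -0.17 by edgeR, and ranged from 0.41 to 4.66 without single libraries. That of Ro01_G02898 in stage 4 against stage 3 ranged from -0.049 (without stage 3 replicate 2) to 1.19. The cause of these moves was not tested. Low levels in stages 3 to 5 were limited by depth, with 3 reads worth up to 8.29 normalised counts.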

Other observations

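The pool of 7078 genes steady between stages 1 and 2 held rising genes as well as falling ones. A mean of at least 100 in stages 1 and 2 was needed to enter it, so genes that rose from a lower level were not counted, and the numbers of falls and rises do not show which was commoner. With the same offset of 10, 657 genes had a score of at least 1, and 333 rose by at least 1 from the higher of stages 1 and 2 to the lowest of stages 3 to 5. With equal total reads the counts were 1669 falling and 86 rising among 7458 pool genes, and after quantile normalization 441 and 164 among 5776. As deposited, 49 pool genes rose by at least as much as the last of the 150 genes fell, and the largest rise, 4.61 on the log2 scale, exceeded the largest fall of 3.56.

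The identifiers of the 150 genes carried all 7 prefixes of the table. Ro01 to Ro07 held 23, 18, 21, 20, 25, 26 and 17 of them, which is 1.66% (Ro02) to 2.74% (Ro01) of the pool genes with each prefix. In the sorted identifiers 5 pairs of the genes lay at most 5 rows apart. Among these was Ro05_G30569, the gene with the highest score, whose next identifier, Ro05_G30570, ranked 11. Ro05_G30570 had 134, 261 and 229 normalised counts in stage 1, 134, 206 and 278 in stage 2, 14.6, 10.2 and 22.5 in stage 3, 7.26 and 5.90 in stage 4, and 0.979, 5.53 and 2.96 in stage 5. The table gives no sequence or position for either, so whether reads could be shared between them is not known here.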
